A study of Saccharomyces cerevisiae with 22 samples.

Results

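The genes described here mark a Saccharomyces cerevisiae cell of mating type a or serve its response to mating pheromone. They are the a-factor genes MFA1 and MFA2, the receptor gene STE2, the exporter gene STE6, the protease gene BAR1, the agglutinin genes AGA1 and AGA2, and PRM7, FUS1 and FAR1. They were chosen by name, as every line of the deposited tables whose gene cell holds 1 of these 10 systematic names. Of the 10 genes, 8 had a cluster of transcription start sites, 1 each, among 5195 clusters in all, and AGA1 and FUS1 had none in the tables used here. Start sites were mapped by TL-seq, which sequences the capped 5′ ends of polyadenylated RNA, in W303 cells grown in YPD, a rich glucose medium. Cells were given 5 mM dithiothreitol (DTT), which unfolds proteins in the endoplasmic reticulum by reducing disulphide bonds, and collected after 1 h, or they were left untreated. The 3 mutants were swi3E815X, which lacks SWI3 and carries the integrated allele swi3-E815X, and snf2W935R and snf2Q928K, which lack SNF2 and carry snf2-W935R or snf2-Q928K. The wild-type strain called SWI3 is the same swi3 deletion with an integrated SWI3 gene, and the strain called SNF2 is the snf2 deletion with an integrated SNF2 gene, so that every strain holds a deletion and an integrated copy marked with LEU2. Each genotype and treatment had 2 replicates, collected on separate days.

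Haploid yeast cells come in 2 mating types, a and alpha, that find each other by secreted peptide pheromones. Cells of type a make a-factor, a short lipid-modified peptide, and read alpha-factor through a receptor coupled to a G protein and a kinase cascade that ends at the transcription factor Ste12. Genes that only a cells express are activated by Mcm1 from a shared upstream element, the a-specific operator, which alpha cells use instead for repression by the alpha2 protein with Mcm1. Swi/Snf is a chromatin remodelling complex that moves nucleosomes at promoters, with Snf2 as its ATPase and Swi3 as a core subunit.

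The deposited tables hold comparisons and no values per library, so the depth and SD of each group are unknown and errors are the SE that the authors' DESeq2 fit gave. Each mutant table sets a mutant against 1 wild-type strain, SWI3 for swi3E815X and the same SNF2 libraries for both snf2 mutants, and the wild-type table pools both strains, with 4 libraries per treatment. The labels do not state this, and it was inferred from the deposited means. Group means quoted below are mean normalized counts computed from the deposited means and fold changes and put on the scale of the wild-type table. They carry no SE of their own, and the 2 wild-type strains were not tested against each other. The labels give no mating type. Of 7 MATa-specific marker genes 6 had a cluster, the exception being ASG7, and none of the 4 MATalpha-specific or 5 meiosis markers had one in the tables used here. In bulk cultures a lower count cannot be divided into fewer expressing cells and less RNA per cell.

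The upstream sequences are shown because the MATa-specific genes share an element that has no full match before the clusters of PRM7 and FAR1. The sequence before the PRM7 cluster is inside the coding region and is not the promoter of the annotated gene. In the S288C reference genome (R64, the build of the files), the 250 bases before each cluster were read and searched on both strands. The core of the operator was searched as CC, 6 bases of any kind, GG, 1 base of any kind and AATT. All 6 MATa-specific genes held a full match to it, and neither PRM7 nor FAR1 did. The FAR1 window held cctaaaaaggaaata, which misses the core only in its last base. Of the 5195 windows of the same length in front of every cluster, 40 (0.77%) held that core. The letters were chosen after these windows had been read, so the count is a description. Below, each element of 31 bases is written so that the core, in capitals, reads from CC to AATT.
MFA1, chrIV:1384942-1384972, plus strand: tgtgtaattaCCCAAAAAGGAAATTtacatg
MFA2, chrXIV:352163-352193, plus strand: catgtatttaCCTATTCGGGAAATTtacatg
STE2, chrVI:82351-82381, minus strand: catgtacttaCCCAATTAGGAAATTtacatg
STE6, chrXI:46477-46507, minus strand: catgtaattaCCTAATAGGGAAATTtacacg
BAR1, chrIX:322078-322108, plus strand: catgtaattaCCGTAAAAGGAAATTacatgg
AGA2, chrVII:437102-437132, plus strand: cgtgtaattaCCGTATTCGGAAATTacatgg

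In MFA1, STE6, BAR1 and AGA2 the core matched on both strands, and the 2 matches overlap. The core ended between 94 and 120 bases before the cluster in MFA1, MFA2, STE2, STE6 and AGA2. It ended farther, 183 and 188 bases for the 2 matches, in BAR1. The pheromone response element TGAAACA, the binding sequence of Ste12, was in the windows of all 6 MATa-specific genes, against 5.79% of all windows. It was in neither the FAR1 window nor that of PRM7, which lies inside the coding region. Whole windows of 3 genes follow, with the core in capitals over both strands. MFA1 and BAR1 are shown because mutants lowered them, and STE6 because it holds the same element and was not called in any comparison. The strains are W303, whose sequence may differ from the reference.
MFA1, chrIV:1384811-1385060, plus strand: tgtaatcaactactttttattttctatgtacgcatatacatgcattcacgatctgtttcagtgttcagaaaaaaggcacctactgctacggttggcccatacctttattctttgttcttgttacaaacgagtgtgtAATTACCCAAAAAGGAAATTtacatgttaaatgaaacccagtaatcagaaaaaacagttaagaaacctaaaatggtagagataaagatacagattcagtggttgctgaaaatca
BAR1, chrIX:322036-322285, plus strand: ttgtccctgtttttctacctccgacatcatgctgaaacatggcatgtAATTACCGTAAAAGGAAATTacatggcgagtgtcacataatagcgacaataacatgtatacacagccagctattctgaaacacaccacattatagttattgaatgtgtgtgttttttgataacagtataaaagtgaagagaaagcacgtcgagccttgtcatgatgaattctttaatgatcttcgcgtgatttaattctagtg
STE6, chrXI:46388-46637, minus strand: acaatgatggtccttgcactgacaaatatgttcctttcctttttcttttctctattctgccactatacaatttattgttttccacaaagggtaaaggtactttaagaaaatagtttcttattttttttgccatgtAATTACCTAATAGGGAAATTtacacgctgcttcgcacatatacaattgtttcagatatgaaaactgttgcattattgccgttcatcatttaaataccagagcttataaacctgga

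**Figure D1:**
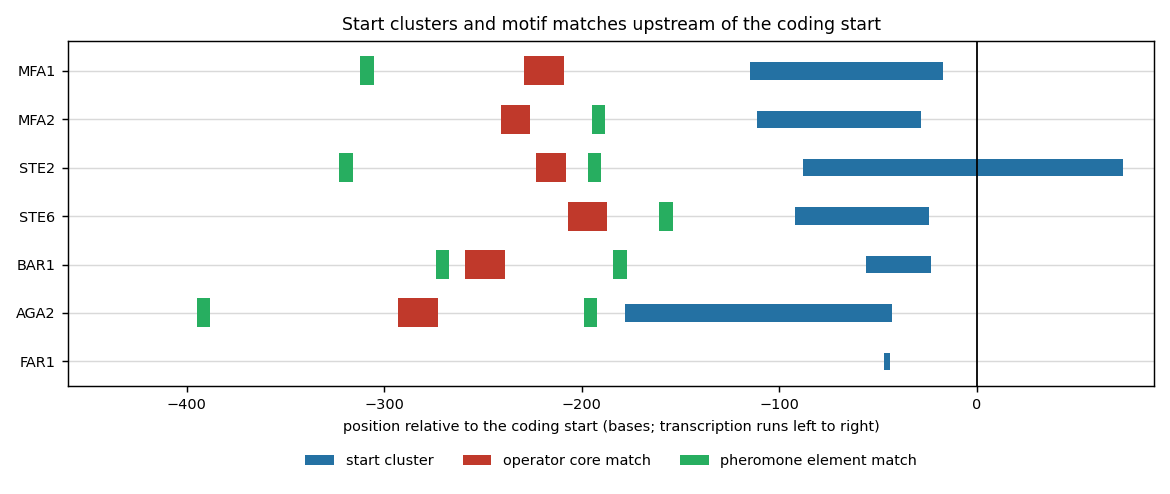
Start clusters (blue), operator core matches (red) and pheromone element matches (green) of 7 genes by distance from the coding start in bases, with motifs searched in the 250 bases before each cluster. The 6 MATa-specific genes each carry the red element upstream of the blue cluster, FAR1 has no full match to either motif, and PRM7, whose cluster is inside the coding region, is not drawn.

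MFA1 (YDR461W, IV, 1385176 to 1385286) encodes a precursor of a-factor, and its cluster (1385061 to 1385158) ended 18 bases before the coding start. With DTT it was called lower in all 3 mutants, with its most negative fold change in swi3E815X. With DTT the mean normalized count of MFA1 was 523 in swi3E815X against 3398 in SWI3, and 1113 in snf2W935R and 660 in snf2Q928K against 2628 in SNF2. Untreated, the mean normalized count of MFA1 was 845 in swi3E815X against 1681 in SWI3, and 833 in snf2W935R and 1023 in snf2Q928K against 2778 in SNF2. All 6 mutant means thus lay below all 4 wild-type means, with the lowest wild-type mean in untreated SWI3. In the authors' deposited table for swi3E815X with DTT, MFA1 was at a log2 fold change of -2.70 ± 0.29, 6.50-fold lower, at a DESeq2 adjusted p of 3.3e-17, the second lowest p of 5195 clusters. The authors' deposited tables gave MFA1 log2 fold changes with DTT of -1.24 ± 0.41 in snf2W935R (adjusted p = 0.049) and -1.99 ± 0.24 in snf2Q928K (adjusted p = 2.8e-14). Untreated, the authors' deposited tables had MFA1 lower in snf2W935R, at -1.74 ± 0.45 (adjusted p = 0.0077) and in snf2Q928K, at -1.44 ± 0.42 (adjusted p = 0.013), and at -0.99 ± 0.30 in swi3E815X, which missed the threshold (adjusted p = 0.057, and 0.047 when adjusted over clusters with at least 50 mean normalized counts).

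The untreated MFA1 calls depended on the wild-type strain, and the log2 ratio of untreated SWI3 over untreated SNF2 was -0.72. Against SWI3 in place of SNF2, with the SE kept, the untreated log2 fold change of MFA1 was -1.01 in snf2W935R (adjusted p = 0.40) and -0.72 in snf2Q928K (adjusted p = 0.43), and neither was called. Neither was called against the mean of both strains, with MFA1 at -1.42 in snf2W935R (adjusted p = 0.088) and -1.13 in snf2Q928K (adjusted p = 0.12). Against SNF2 in place of SWI3, untreated swi3E815X was at -1.72 for MFA1 (adjusted p = 2.2e-06), and against the mean of both strains at -1.40 (adjusted p = 0.00080). All 3 MFA1 calls with DTT were kept against either strain and against their mean. In the pooled wild type, DTT left MFA1 uncalled, at a log2 fold change of 0.43 ± 0.30 according to the authors' deposited table (adjusted p = 0.28). That value pools 2 strains, in which the mean normalized count of MFA1 was 3398 with DTT and 1681 untreated in SWI3, a log2 ratio of 1.02, and 2628 with DTT and 2778 untreated in SNF2, a log2 ratio of -0.08.

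MFA2 (YNL145W, XIV, 352414 to 352530) encodes the other a-factor precursor, and its cluster lay 29 to 111 bases before the coding start. DTT lowered it in wild-type cells, to a mean normalized count of 1158 against 3350 untreated in SWI3 and 1144 against 4560 in SNF2. In the authors' deposited table, the MFA2 log2 fold change with DTT in pooled wild type was -1.78 ± 0.28 (adjusted p = 3.7e-09). The difference between the responses of MFA1 and MFA2 to DTT was not tested. With DTT the mutants had a mean normalized count of MFA2 of 564 in swi3E815X, 822 in snf2W935R and 793 in snf2Q928K, all under both wild-type strains. Untreated they had mean normalized counts of 2377 in swi3E815X, 2520 in snf2W935R and 1778 in snf2Q928K, again all under both wild-type strains. Of the 6 mutant values only that of untreated snf2Q928K passed the test, with an MFA2 log2 fold change of -1.36 ± 0.33 according to the authors' deposited table (adjusted p = 0.0016). Against the mean of both wild-type strains that MFA2 value was -1.15 (adjusted p = 0.015), and against SWI3 it was -0.91 (adjusted p = 0.080). For swi3E815X with DTT the authors' deposited table gave MFA2 at -1.04 ± 0.31, just outside the threshold (adjusted p = 0.0502). That MFA2 value was called under 4 alternatives, at an adjusted p of 0.041 over clusters with at least 50 mean normalized counts, centred on the median, or against the mean of both wild-type strains, and of 0.021 against SNF2. The remaining 4 MFA2 values lay between -0.86 and -0.48, and none was called.

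**Figure D2:**
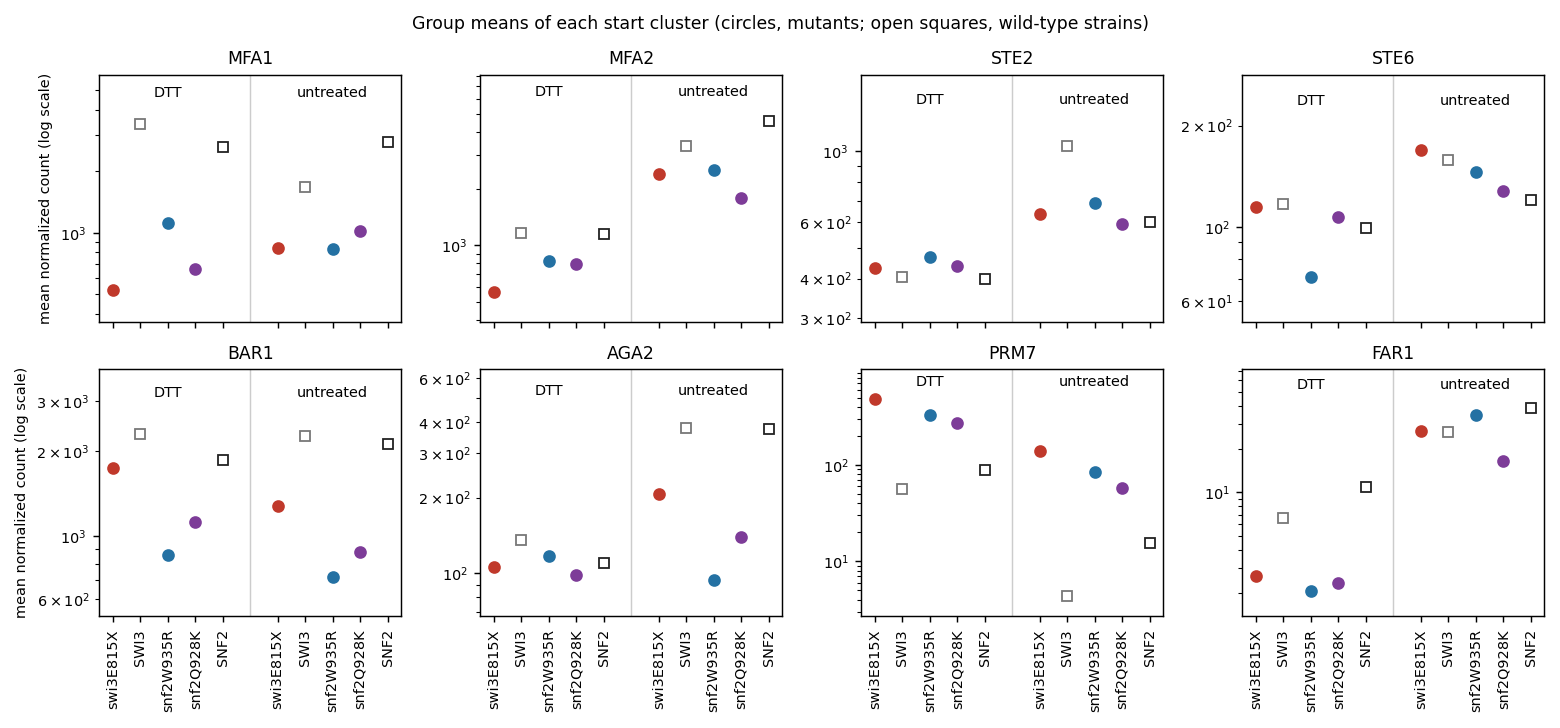
Mean normalized count (log scale) of each member's cluster in the 10 groups, mutants as circles and wild-type strains as open squares, with DTT on the left of each panel and untreated on the right. The MFA1 means of the mutants lie between 523 and 1113, all under the wild-type means of 1681 to 3398, and the PRM7 means of the mutants are higher than those of both wild-type strains under the same treatment.

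BAR1 (YIL015W, IX, 322342 to 324105) encodes the secreted protease that degrades alpha-factor, and its cluster lay 24 to 56 bases before the coding start. It was called lower in both snf2 mutants under both treatments. With DTT the mean normalized count of BAR1 was 857 in snf2W935R and 1121 in snf2Q928K against 1858 in SNF2. Untreated it was 719 in snf2W935R and 879 in snf2Q928K against 2117 in SNF2. All 4 means lay well below the wild-type means, which spanned 1858 to 2294 over both strains and treatments. The authors' deposited tables put BAR1 with DTT at a log2 fold change of -1.12 ± 0.37 in snf2W935R (adjusted p = 0.046) and -0.73 ± 0.26 in snf2Q928K (adjusted p = 0.037). Untreated, the authors' deposited tables put BAR1 at -1.56 ± 0.35 in snf2W935R (adjusted p = 0.00088) and -1.27 ± 0.34 in snf2Q928K (adjusted p = 0.0051). These 4 BAR1 calls held against SWI3 as well. In swi3E815X the mean normalized count of BAR1 was 1748 with DTT against 2294 in SWI3, and 1286 untreated against 2258 in SWI3. Neither BAR1 difference in swi3E815X was called, at -0.39 ± 0.28 with DTT and -0.81 ± 0.30 untreated according to the authors' deposited tables (adjusted p = 0.97 and 0.18). DTT left BAR1 at -0.07 ± 0.23 in the authors' deposited wild-type table, not called.

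AGA2 (YGL032C, VII, 436570 to 436833) encodes the binding subunit of a-agglutinin, which holds mating cells together, and its cluster lay 44 to 178 bases before the coding start. It was called lower in both snf2 mutants in untreated cells and in no mutant with DTT. Untreated, the mean normalized count of AGA2 was 207 in swi3E815X against 378 in SWI3, and 93.7 in snf2W935R and 140 in snf2Q928K against 376 in SNF2. With DTT the mean normalized count of AGA2 was 106 in swi3E815X against 136 in SWI3, and 117 in snf2W935R and 98.1 in snf2Q928K against 110 in SNF2. Untreated snf2W935R thus had the lowest AGA2 mean of the 10 groups. In the authors' deposited tables, untreated AGA2 fell with a log2 fold change of -2.00 ± 0.48 in snf2W935R (adjusted p = 0.0027) and -1.42 ± 0.46 in snf2Q928K (adjusted p = 0.036). It was at -0.87 ± 0.40 in untreated swi3E815X according to the authors' deposited table, not called (adjusted p = 0.41). With DTT the 3 AGA2 values lay between -0.36 and 0.09, and none was called. DTT lowered AGA2 in wild-type cells, with a log2 fold change of -1.62 ± 0.33 according to the authors' deposited table (adjusted p = 1.2e-05).

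STE2 (YFL026W, VI, 82580 to 83875) encodes the alpha-factor receptor, and its cluster, 162 bases wide, spanned the coding start. DTT lowered STE2 in wild-type cells, at -1.02 ± 0.29 on the log2 scale according to the authors' deposited table (adjusted p = 0.0021). The mean normalized count of STE2 with DTT was 431 in swi3E815X, 468 in snf2W935R, 439 in snf2Q928K, 406 in SWI3 and 400 in SNF2. Untreated, it was 639 in swi3E815X, 687 in snf2W935R, 594 in snf2Q928K, 1036 in SWI3 and 600 in SNF2. Untreated SWI3 stood above the other strains, and the STE2 log2 ratio of DTT over untreated was -1.35 in SWI3 and -0.59 in SNF2. No mutant was called for STE2, and the deposited values of the 6 mutant tables lay between -0.70 and 0.23.

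STE6 (YKL209C, XI, 42423 to 46295) encodes the transporter that exports a-factor, and its cluster lay 25 to 92 bases before the coding start. It was not called in any of the 7 tables, and the deposited log2 fold changes of STE6 lay between -0.48 and 0.28. With DTT its mean normalized count was 114 in swi3E815X, 71.0 in snf2W935R, 107 in snf2Q928K, 117 in SWI3 and 98.9 in SNF2. Untreated STE6 was between 120 in SNF2 and 170 in swi3E815X. The SE of STE6 in the mutant tables, 0.44 to 0.67, is larger than that of MFA1. With DTT the 95% interval of STE6 was -1.79 to 0.83 in snf2W935R and -0.87 to 1.10 in snf2Q928K. Both include the BAR1 value of the same mutant, so a change of that size could have been missed there. Untreated, the interval was -0.81 to 1.37 in snf2W935R and -0.93 to 1.10 in snf2Q928K, and neither reached the BAR1 values of -1.56 and -1.27.

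PRM7 (YDL039C, IV, 381985 to 384081) is a pheromone-regulated gene whose predicted product has a membrane-spanning segment. Its cluster (382681 to 382700) does not mark the start of the annotated gene but lies 1381 to 1400 bases inside the coding region, on the coding strand. The reference annotation states that in W303 the reading frames of PRM7 and its upstream neighbour BSC1 are joined into a single gene, IMI1, and BSC1 had no cluster in the tables used here. The cluster is shown in capitals after the 100 bases before it.
PRM7, chrIV:382681-382800, minus strand: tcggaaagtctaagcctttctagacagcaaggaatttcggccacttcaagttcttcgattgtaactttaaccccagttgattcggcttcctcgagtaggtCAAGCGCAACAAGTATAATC

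Start-site use inside PRM7 was called higher in all 3 mutants with DTT and in swi3E815X untreated, and DTT raised it in wild-type cells. With DTT the mean normalized count of PRM7 was 484 in swi3E815X against 55.7 in SWI3, and 329 in snf2W935R and 270 in snf2Q928K against 88.3 in SNF2. Untreated it was 138 in swi3E815X against 4.40 in SWI3, and 84.9 in snf2W935R and 57.7 in snf2Q928K against 15.6 in SNF2. Untreated swi3E815X therefore had more PRM7 than either wild-type strain had with DTT, and untreated snf2W935R about as much as SNF2 with DTT. The authors' deposited tables had PRM7 higher in swi3E815X by a log2 fold change of 3.12 ± 0.37 with DTT (adjusted p = 2.2e-14) and 4.97 ± 0.86 untreated (adjusted p = 4.4e-06). With DTT the authors' deposited tables had PRM7 higher in snf2W935R by 1.90 ± 0.48 (adjusted p = 0.0040) and in snf2Q928K by 1.61 ± 0.44 (adjusted p = 0.0034). Untreated, PRM7 was at 2.44 ± 0.93 in snf2W935R and 1.89 ± 1.00 in snf2Q928K according to the authors' deposited tables, neither called (adjusted p = 0.17 and 0.36). The untreated fold changes of PRM7 are over wild-type means of few counts, and their size changed with the wild-type strain. Against the mean of both wild-type strains, untreated PRM7 was at 3.77 in swi3E815X (adjusted p = 0.0020), at 3.07 in snf2W935R (adjusted p = 0.058) and at 2.51 in snf2Q928K (adjusted p = 0.17), and the snf2 values were not called. Set against SNF2, untreated swi3E815X was at 3.14 for PRM7 (adjusted p = 0.0070), and set against SWI3, snf2W935R was at 4.27 (adjusted p = 0.00055) and snf2Q928K at 3.71 (adjusted p = 0.0057). All of these kept the deposited SE. The SE of a ratio over untreated SWI3, at 4.40 counts, was not estimated, so the snf2 values over SWI3 are not firm calls. In the authors' deposited wild-type table, DTT raised PRM7 by 2.83 ± 0.68 (adjusted p = 0.00022). Gcn4 elements are noted in the annotation for the PRM7 promoter, which was not searched. The Gcn4 sequence TGACTC was in 7.83% of all windows and not in the 250 bases before the PRM7 cluster, which are coding sequence.

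FAR1 (YJL157C, X, 123836 to 126328) encodes an inhibitor of the cyclin-dependent kinase that arrests the cell cycle in pheromone, and its cluster, 3 bases wide, was too weakly used to read. Its mean normalized count with DTT was 2.63 in swi3E815X, 2.08 in snf2W935R, 2.34 in snf2Q928K, 6.61 in SWI3 and 11.0 in SNF2. Untreated FAR1 was between 16.6 in snf2Q928K and 38.6 in SNF2. The SE of FAR1 in the mutant tables was 0.96 to 2.21, and no table called it. In the authors' deposited wild-type table FAR1 was at a log2 fold change of -1.87 ± 0.78 (adjusted p = 0.0504).

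Counted over the 8 genes, the calls per comparison were read against the share of all clusters called. In swi3E815X with DTT, 2 genes were called (1.39% of all clusters), 1 lower (1.17%) and 1 higher (0.212%). In untreated swi3E815X, 1 gene was called (1.81% of all clusters), which was higher (0.463%), and none was lower (1.35%). There, 4 of the 6 MATa-specific genes had an unadjusted DESeq2 p under 0.05, as 9.61% of all clusters did. Among them STE2, at a log2 fold change of -0.70, was at 0.090 against SNF2. That unadjusted share was computed for no other mutant comparison with wild type. In snf2W935R with DTT, 3 genes were called (5.37% of all clusters), 2 lower (2.83%) and 1 higher (2.54%). Untreated, 3 were called in snf2W935R (2.74%), all lower (1.79%) and none higher (0.945%). In snf2Q928K with DTT, 3 genes were called (14.5% of all clusters), 2 lower (7.18%) and 1 higher (7.34%). Untreated, 4 were called in snf2Q928K (6.56%), all lower (3.74%) and none higher (2.82%). In the mutant tables the lower calls were all on MATa-specific genes, and the higher calls were all PRM7. The median log2 fold change of the 6 MATa-specific genes was -0.38 in swi3E815X, -0.48 in snf2W935R and -0.35 in snf2Q928K with DTT, and -0.76 in swi3E815X, -1.21 in snf2W935R and -1.31 in snf2Q928K untreated. The median over all clusters lay between -0.04 and 0.02 in these tables. In wild-type cells DTT changed 4 of the 8 genes, 3 lower (17.3% of all clusters) and 1 higher (16.5% of all clusters), in a comparison that called 33.8% of all clusters.

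**Figure D3:**
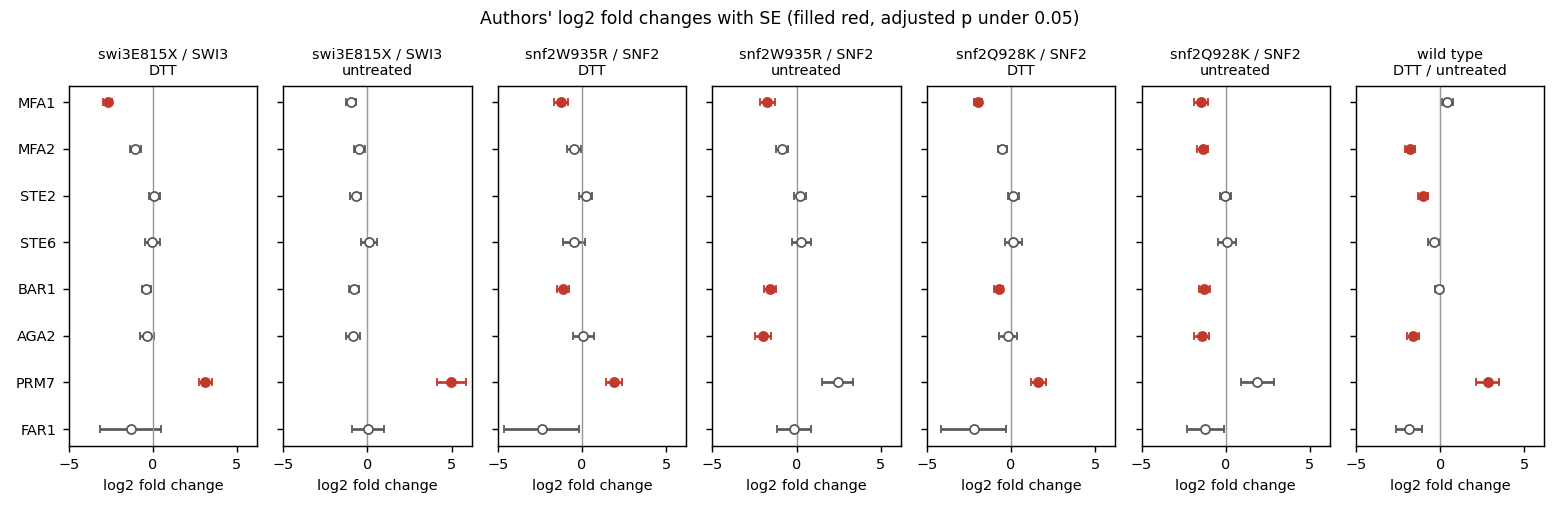
Log2 fold changes of the authors' deposited tables with their SE for the 8 genes in the 7 comparisons, filled red where the adjusted p was under 0.05. MFA1 lies left of 0 in all mutant panels, from -2.70 to -0.99, PRM7 lies right of 0 in every panel, and STE2 and STE6 are never filled in a mutant panel.

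Whether a mutant effect differed between DTT and untreated cells was tested as the difference of the log2 fold changes. No gene passed the Benjamini-Hochberg adjustment in any mutant, by a normal test that called 0.0386% of all clusters in swi3E815X, 0.869% in snf2W935R and 1.41% in snf2Q928K. At an unadjusted p under 0.05 there were 2 of the 8 genes in swi3E815X (3.82% of all clusters), 1 in snf2W935R (10.3%) and 0 in snf2Q928K (10.4%). The counts in both snf2 mutants are near those shares. MFA1 was closest in swi3E815X, with an effect of -2.70 under DTT and -0.99 untreated, a difference of -1.71 (95% interval -2.53 to -0.88, adjusted p = 0.084), the third lowest p of the table. Against SNF2, that MFA1 difference was -0.61 (adjusted p = 0.92), so its size rested on the SWI3 strain. AGA2 in snf2W935R had an effect of 0.09 under DTT and -2.00 untreated, a difference of 2.09 (95% interval 0.57 to 3.62, adjusted p = 0.22). PRM7 in swi3E815X differed by -1.85 (95% interval -3.69 to -0.02, adjusted p = 0.999). The 95% intervals of the other genes and mutants all span 0.

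**Figure D4:**
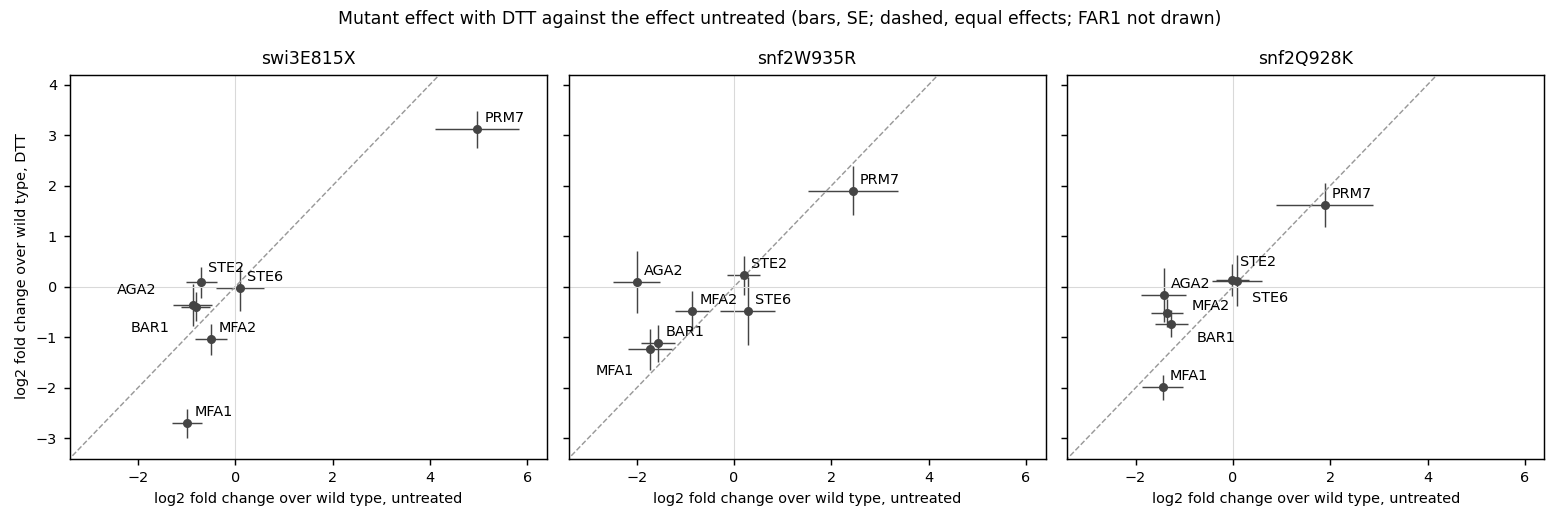
Mutant effect as log2 fold change over the wild-type strain with DTT (vertical) against untreated (horizontal), with SE bars and a dashed line of equal effects, for 7 genes in 3 mutants (FAR1, with an SE of up to 2.21, is not drawn). MFA1 in swi3E815X sits below the line at -2.70 with DTT and -0.99 untreated, and AGA2 in snf2W935R above it at 0.09 with DTT and -2.00 untreated.

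The snf2 mutants, which differ in the substituted residue of the same ATPase, were also compared with each other. No gene passed the normal test between snf2Q928K and snf2W935R after adjustment, either with DTT, where 0.289% of all clusters were called, or untreated, where 0.174% were. None had an unadjusted p under 0.05 either, against 3.02% of all clusters with DTT and 1.8% untreated. With DTT the difference in MFA1 was -0.75 (95% interval -1.69 to 0.18) and in BAR1 0.39 (95% interval -0.49 to 1.27). Untreated, the difference in AGA2 was 0.58 (95% interval -0.73 to 1.89). These intervals do not show that the substitutions act alike on these genes. The tables share the SNF2 libraries, which cancel in the difference, so the SE is too large.

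The other genes of the mating pathway were read from lists. Of 7 genes that mature a-factor, 6 had a cluster, and none was called in a mutant, in comparisons that called 1.39% to 14.5% of all clusters. RAM2, a subunit of the farnesyltransferase, rose with DTT in wild type (log2 fold change 0.72 ± 0.28 according to the authors' deposited table, adjusted p = 0.031). Of 18 pheromone signalling genes, 12 had a cluster. FUS3, the mating kinase, fell untreated in snf2W935R with a log2 fold change of -1.30 ± 0.38 and in snf2Q928K with -1.43 ± 0.36 according to the authors' deposited tables, and with DTT in snf2Q928K with -0.89 ± 0.26 (adjusted p = 0.0084). Untreated, the mean normalized count of FUS3 was 500 in snf2W935R, 1235 in SNF2 and a lower 819 in SWI3, each on the scale of its own comparison. The snf2 mutants were not tested against SWI3 for FUS3. STE50, an adaptor of the kinase cascade, fell with DTT in snf2Q928K (-1.28 ± 0.41) and rose with DTT in wild type (1.48 ± 0.34) according to the authors' deposited tables. No signalling gene was called in swi3E815X, where only 1.81% of all clusters were called untreated and 1.39% with DTT. FUS3 in untreated swi3E815X was at -0.88 ± 0.35 (DESeq2 adjusted p = 0.26), so the count does not show a contrast with the snf2 mutants. STE12 and STE5 had no cluster in the tables used here.

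Of 18 further pheromone-induced genes only 4 had a cluster. PRM5 and PRM8 rose with DTT in wild type by log2 fold changes of 1.16 ± 0.23 and 1.08 ± 0.31 according to the authors' deposited table. With DTT, PRM5 fell in snf2Q928K with a log2 fold change of -0.97 ± 0.27 according to the authors' deposited table (adjusted p = 0.0049). None of these 4 genes was called higher in a mutant, as 0.212% to 7.34% of all clusters were. The PRM7 cluster was, but it lies inside the coding region and does not mark the start of the annotated gene. Of 10 mating-type regulators and silencing genes, 8 had a cluster. None was called in swi3E815X, where 1.81% of all clusters were called untreated and 1.39% with DTT. MCM1, which encodes the activator at the operator, was not called in any table by its stronger cluster. HO, the endonuclease that switches mating type, was lower in both snf2 mutants under both treatments, with a log2 fold change of -2.37 ± 0.38 in untreated snf2W935R according to the authors' deposited table (adjusted p = 1.7e-07). RME1, a repressor of meiosis, fell in untreated snf2Q928K (-1.10 ± 0.30), and SIR4, a silencing protein, fell in snf2Q928K with DTT (-1.57 ± 0.56) according to the authors' deposited tables. With DTT the mean normalized count of SIR4 was 71.8 in snf2Q928K and 214 in SNF2, but 28.5 in SWI3, each on the scale of its own comparison. The fall of SIR4 thus rested on the SNF2 strain, and snf2Q928K was not tested against SWI3 for this gene. In wild type, DTT lowered HO (-2.28 ± 0.33) and YHP1 (-1.23 ± 0.48), a repressor that binds beside Mcm1, according to the authors' deposited table.

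The clusters whose log2 group means ran most like MFA1 over the 10 groups, searched over the 3316 clusters whose mean normalized count was 50 or more in all tables, were those of ERV2 (Pearson r = 0.90), an ER thiol oxidase, YHR033W (r = 0.87) and MSN5 (r = 0.87), a nuclear transport receptor. Of the other MATa-specific genes, MFA1 ran with BAR1 at r = 0.61, with AGA2 at r = 0.44, with MFA2 at r = 0.39, with STE2 at r = -0.04 and with STE6 at r = -0.09. Most like PRM7 were YKL162C-A (r = 0.93), the prefoldin subunit gene GIM5 (r = 0.93) and the intergenic cluster 8538 (r = 0.90). The correlation does not weigh the size of a change. Group means spanned only 1180 to 1842 for MSN5, against 523 to 3398 for MFA1, and only 63.6 to 149 for GIM5, against 4.40 to 484 for PRM7. They spanned more for YHR033W (7.50 to 218) and YKL162C-A (21.4 to 421). Each of the 10 points is the mean of a group of 2 libraries, and the correlations were not tested, so these values are descriptions.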

How the data were processed

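The 22 TL-seq libraries comprise 20 made with Cap-Clip, in 10 groups of 2, and 2 SWI3 libraries without it, which were not analysed here. Per the submitters' processing notes, the tools were cutadapt, HISAT2 and DESeq2 and the build sacCer3 (R64). No version is given in the sources used here. Lines are CAGEr consensus clusters, as the file headers name them. The authors deposited, in 7 tables, a mean normalized count per cluster (a signal: counts divided by size factors), a log2 fold change with SE, a Wald score, and p-values and adjusted p-values. A cluster was called at an adjusted p under 0.05. Lines emptied for this work (2 per table) and stray lines (1 per mutant table) were not used.

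Arm means were computed as if both arms had equal library numbers. The wild-type table was fitted as a weighted sum of the wild-type arms of the other tables, with a 99th percentile residual of at most 0.0065 log2 units, and the weights put all groups on 1 scale. For differences of log2 fold changes, a two-sided normal test took the square root of the summed squared SEs as its SE. Its p-values were adjusted over all clusters by Benjamini-Hochberg, and the step was tested on simulated data. Values against the other wild-type strain, or against the mean of both, kept the SE of the original comparison and were put through a normal test with the same adjustment. Other genes were named from lists where called, at most 4 a list and comparison, largest change first, with a gene's strongest cluster standing for it, and the 3 clusters most like MFA1 and PRM7 by correlation were named. Members, lists and tests were chosen with earlier results of these data known. Replicates, per the labels, came from separate days. All p-values rest on the spread between replicates as the authors' DESeq2 fit modelled it, with 2 replicates per group. The scripts ran in python 3.11.15 (numpy 2.4.6, pandas 2.3.3, scipy 1.17.1), with matplotlib 3.10.9 for plots. Sequences came from the RefSeq R64 assembly.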

Additional observations from a re-analysis of the deposited data

How the results depend on the processing

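No paired analysis was possible because the files hold no values per library, and for the same reason leaving out each replicate was not run. Counts of called genes moved by over 1.5 times in 5 cases and stayed within that in 53. In untreated swi3E815X, 2 genes were called in place of 1 over clusters with at least 50 mean normalized counts, against the mean of both wild-type strains and against the other wild-type strain, the added gene being MFA1. At an adjusted p under 0.01, 1 gene was called in snf2W935R with DTT in place of 3, and 2 in untreated snf2Q928K in place of 4. The comparison with the other wild-type strain was chosen after seeing the data. Of the single values recomputed, 405 kept their direction and side of the threshold, 11 lost a call, 9 gained one and 21 changed sign, and no value that changed sign was called in either setting. Against the mean of both wild-type strains, the log2 fold changes that changed sign were FAR1 in untreated swi3E815X (-0.27), STE6 in swi3E815X with DTT (0.084), STE2 (-0.25) and FAR1 (0.093) in untreated snf2W935R, AGA2 in snf2W935R with DTT (-0.072), and STE6 in snf2Q928K untreated (-0.13) and with DTT (-0.0061). Against the other wild-type strain they were STE2 (0.090) and FAR1 (-0.52) in untreated swi3E815X, STE6 in swi3E815X with DTT (0.21), STE2 (-0.59), STE6 (-0.12) and FAR1 (0.39) in untreated snf2W935R, AGA2 in snf2W935R with DTT (-0.22), and STE6 in snf2Q928K untreated (-0.31) and with DTT (-0.12). There the DTT minus untreated difference in snf2W935R was -0.60 for MFA1 and -0.084 for MFA2. With fold changes centred on the table's median, STE2 in untreated snf2Q928K was at 0.017, and the DTT minus untreated differences of STE2 in snf2W935R (-0.0027) and of STE6 in snf2Q928K (-0.0088) were near 0. The unknown depth per library limits what can be said of FAR1, STE6 and untreated PRM7.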
